A study of Rattus rattus with 10 samples.

Results

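The baseline transcriptome of whole rat testis was taken from the 4 vehicle arrays of a set of 10. They are the arrays titled as controls of 0, 4, 12 and 24 h, and all 31042 probe sets that are not hybridisation controls were described. Per the labels, the animals were Long-Evans male rats, adults 60 days old, and the vehicle was buffered DMSO given once by intraperitoneal injection. Testes were collected at 0, 4, 12 or 24 h, and each hour had 1 vehicle array. The other 6 arrays, used here only for comparison, came from rats given 1 intraperitoneal dose of gamendazole (6 mg/kg) or of lonidamine (25 mg/kg), with 1 array for each drug at 4, 12 and 24 h. Both drugs are indazole carboxylic acids that disturb the attachment of germ cells to Sertoli cells. The labels used here do not say how many animals stood behind an array or whether RNA was pooled, and they name no untreated group. The hours therefore stand in for replicates, and every spread and p-value below mixes the hour, the animals and the array.

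The testis makes sperm inside seminiferous tubules. Spermatogonia divide at the tubule wall, spermatocytes pass through meiosis, and the resulting round spermatids reshape into elongating spermatids with a condensed nucleus and a tail. During that reshaping histones give way to transition proteins and then to protamines, and many transcripts are stored for translation after transcription has stopped. Sertoli cells nurse the germ cells within the tubule, peritubular muscle cells wrap it, and Leydig cells between the tubules make testosterone.

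Signal is the deposited brightness of a probe set in linear units, with every array scaled to the same trimmed mean of 500. The pooled median over all 10 arrays was 116.2, and the medians of the vehicle arrays were 112.9, 117.1, 116.7 and 114 at 0, 4, 12 and 24 h. Brightness depends on the probes as well as on the amount of RNA, so the order of genes by brightness is an order of probe sets and not of RNA abundance. In whole tissue, fewer cells of a type and less RNA per cell cannot be told apart. The instrument records place the vehicle arrays of 0 and 4 h in the first of 3 hybridisation runs, that of 12 h in the next and that of 24 h in the last, so hour and run cannot be told apart except between 0 and 4 h. For beta-actin, signal near the 3' end over that near the 5' end, a quotient which grows as RNA degrades, was 2.0, 1.92, 1.98 and 1.96 on the vehicle arrays of 0, 4, 12 and 24 h. Signals under 37.1, the pooled 25th percentile, were treated as equal to it (the floor), and the 15880 probe sets that reached the pooled median on at least 2 vehicle arrays were tested.

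The brightest signals of the vehicle testis included genes of sperm head condensation, of the sperm tail and of mitochondria. Of the 30 brightest genes, 10 stood on a list of elongating spermatid markers, 1 on the round spermatid list and 1 on the list of meiotic spermatocytes, while 18 stood on no list of cell markers. The lists are short, so a gene on none of them, such as Crisp2 or Spata6 below, can still be of germ cells. In the 30 genes the highest array exceeded the lowest by a factor of between 1.019 and 1.129, so the arrays barely differed in them.

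Prm1, the protamine that packs sperm DNA, was the brightest, with signals of 56099, 56395, 56158 and 52779 at 0, 4, 12 and 24 h (mean 55358 ± 1724, SD, n = 4 arrays). Tnp1, a transition protein that replaces histones before the protamines do, had 39934, 38347, 43083 and 39616, and was highest at 12 h. Its partner Tnp2 had 32169.5, 33232, 34468 and 33869, lowest at 0 h. Hils1, a linker histone of spermatids, reached 25869, 24993, 26716 and 25577. Below the 30 brightest, Prm2 had 20093, 20376, 21316 and 19150.3 and Prm3 15186, 15397, 15169.9 and 15132, so all 5 nuclear packing genes that were matched on the elongating list lay above the 99th percentile of brightness. No hour stood apart in the same direction across these genes: 24 h was lowest for Prm1, Prm2 and Prm3, 0 h for Tnp2 and 4 h for Tnp1.

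The outer dense fibres stiffen the sperm tail, and both of their main genes were among the 11 brightest probe sets. Odf1 had 38449.8, 36540.1, 38078 and 35373 and Odf2 36037, 35048, 36784 and 34595 at 0, 4, 12 and 24 h. Akap4, the main anchor protein of the fibrous sheath around the tail, had 24175, 23066, 23726 and 23081, and Akap3, of the same sheath, 14333, 14866, 15597 and 16656. Spata6, which the sperm neck needs to form, had 33590.1, 33831, 33722 and 32417 and was lowest at 24 h. Tubb4b, a beta-tubulin of cilia and flagella, had 26139, 26717, 25829.8 and 25819, and Dnaaf1, which helps to assemble dynein arms, 26102, 25445, 25761 and 25547. Crisp2, a cysteine-rich protein of the acrosome and tail, had 37481, 37149, 38099 and 37652, a spread of 1.05% of the mean (coefficient of variation).

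Mitochondrial and energy genes followed. COX1 and COX2 are subunits of cytochrome c oxidase encoded in mitochondrial DNA, with 44309, 44722, 44847 and 42434 and 38956, 39289, 39533 and 38785 at 0, 4, 12 and 24 h. Smcp, a protein of the capsule around sperm mitochondria, had 42388, 42574, 40522 and 42603, and was lowest at 12 h. Gpx4, the lipid peroxide reductase that also hardens into that capsule, had 38940.5, 37584, 39394 and 38632. Gapdhs, the glyceraldehyde phosphate dehydrogenase of sperm, had 32643, 32166, 32572 and 30673, and Ldhc, the lactate dehydrogenase of germ cells, 29335, 29539, 29988 and 30460.4. Ldhc was the only gene of the meiotic list among the 30.

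The remaining genes among the 30 were of mixed function. Oaz3, the antizyme of testis that restrains polyamine synthesis, had 40678, 41065, 41626 and 39896. Hspb9, a small heat shock protein of testis, had 39843, 38784, 39181 and 38389.7. Gsg1, a germ cell protein that binds the poly(A) polymerase of testis, had 37079, 34675, 36344 and 34076, and its second probe set, at 36404, 34570.5, 36126 and 31522, was nearly as bright. Gstm5, a mu-class glutathione transferase, had 36088, 35949, 34651 and 34946, and Pebp1, an inhibitor of Raf kinase, 35766, 34143, 35325 and 33569. Fabp9, a fatty acid binding protein of the sperm head, had 28089.8, 29253, 30657 and 29493 and was lowest at 0 h. Psma6, a subunit of the proteasome core, had 28161, 27366, 27654 and 26609, Ppp1cc, a catalytic subunit of protein phosphatase 1 that mouse spermatids need, 26297, 26841, 25704 and 26821, and Morf4l1, a chromatin protein, 26554, 28594, 29614 and 27919. Dbil5, a spermatid peptide related to the diazepam binding inhibitor, had 27296, 25279, 25409 and 24176, highest at 0 h. Means of the others were 34742 ± 905 for Fam229b, 31621 ± 422 for Cmtm2a, 28648 ± 1618 for Btbd1 and 26457 ± 765 for Asrgl1 (SD, n = 4 each). Other probe sets of these genes ranged widely, from a bright one of Spata6 with a mean of 22199 to a dim one of Gpx4 at 33, 9.8, 13 and 11.2; for Odf2 they were at 696, 843, 833 and 823 and at 43.6, 14.3, 65.3 and 22.5.

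**Figure D1:**
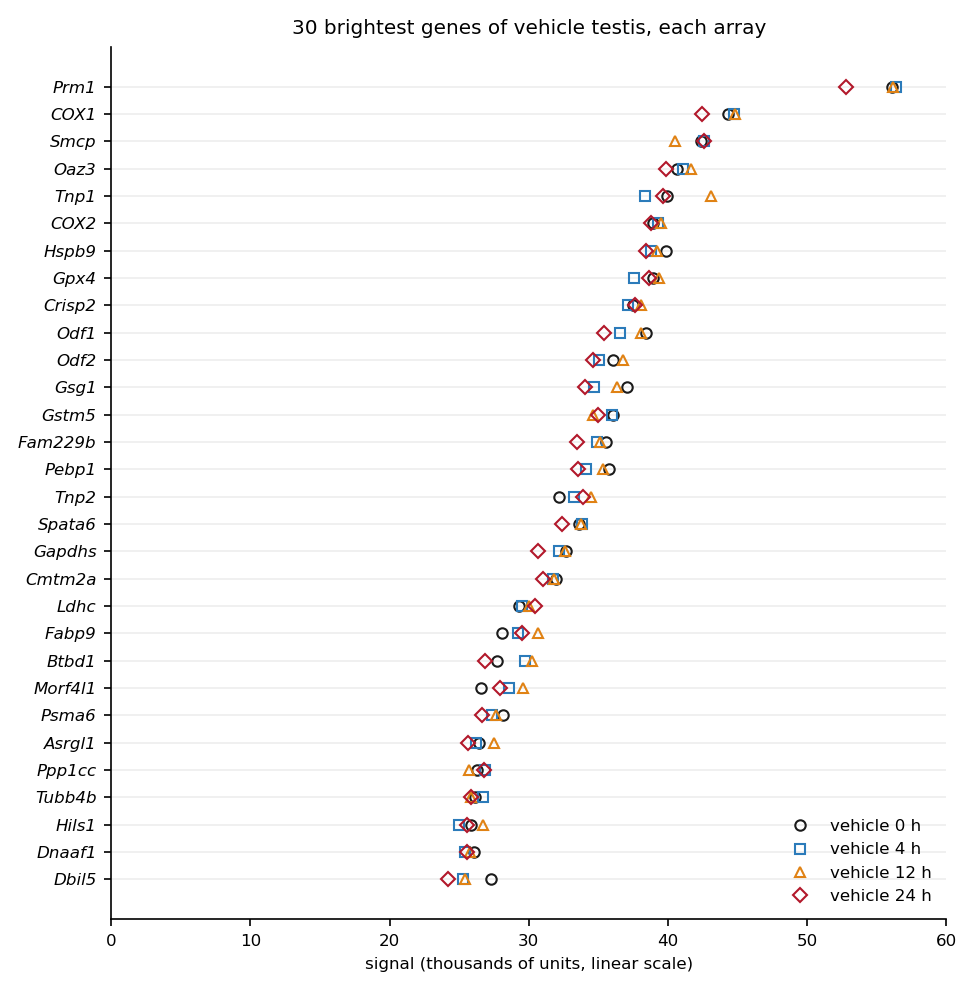
Signal (1000 linear units, axis from 0) of the 30 brightest genes on each of the 4 vehicle arrays, 1 symbol an hour. Prm1 leads at between 52779 and 56395, and within a gene the 4 hours lie within a factor of 1.129 of each other.

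A small part of the probe sets carried most of the signal. The 100 brightest held 11.371%, 11.281%, 11.383% and 11.193% of the summed signal at 0, 4, 12 and 24 h, and the 1000 brightest 47.1 ± 0.19% (SD, n = 4). On average 1142 ± 10 probe sets held the first 50% of the signal and 8128 ± 88 the first 90%. Of the 100 brightest probe sets by the mean, 86 were among the 100 brightest on all 4 arrays. The 4 separate lists of 100 held 114 different probe sets. In the annotation, 76 of the 100 carry 1 gene symbol, 13 carry several and 11 carry none here. Among the 100 brightest genes, 16 were on the elongating spermatid list, 2 on the meiotic list and 1 on the round spermatid list, and 81 were on no marker list. Being on no list does not place a gene outside the germ cells.

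Marker lists of 13 cell types were then placed on the same scale, by each gene's percentile among all probe sets. Over all 14217 named genes, 8.84% lay among the brightest 5% of probe sets, 61.9% lay at or above the pooled median on all 4 vehicle arrays, and the median percentile was 66.9. Each gene was read from its brightest probe set. The lists were written from general knowledge of the testis, with earlier results of these data known, so their order describes these lists and their probe sets.

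The germ cell lists ran from very bright at the late stages to dim at the early ones. All 23 matched elongating spermatid markers lay at or above the pooled median on all 4 arrays, 22 among the brightest 5%, with a median percentile of 99.8. The dimmest of them, Hook1, a protein of the microtubule manchette around the spermatid nucleus, had 2086, 2697, 2549 and 2599.7 at 0, 4, 12 and 24 h. Of 12 round spermatid markers, 10 were among the brightest 5% (median percentile 97.6). Tbpl1, a relative of the TATA-binding protein that spermatids need, had 12803, 13425, 10200.2 and 13805 and Spag4, a nuclear envelope protein, 9732, 9824, 10743 and 10266. Of its acrosome genes, Acrbp had 7907, 7292, 7395 and 7367 and Acr, the protease acrosin, 4416, 4030.2, 4027 and 3640.2. Crem, the transcription factor that switches on many spermatid genes, had 5599, 5699.7, 5138 and 4900.5.

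Of 17 meiotic markers 10 were among the brightest 5%, with a median percentile of 96.6. Ybx2, which binds and stores germ cell messenger RNA, had 19155, 19018, 19649 and 19702, Hspa2, a chaperone of meiotic chromosomes, 16467, 16749.5, 17024 and 17144, and Sycp3, of the lateral element of the synaptonemal complex, 12560.5, 14208, 13417 and 14090.3. Spo11, the enzyme that makes the meiotic breaks, had 284, 409.8, 360.1 and 405, and Sycp1, the transverse filament of the same complex, had 1396, 1399.7, 1227 and 1354. The dimmest was H1f6, the linker histone of spermatocytes, with 108, 129, 129 and 119. Spermatogonial markers were dim: 0 of 14 were among the brightest 5%, 6 lay at or above the pooled median on all 4 arrays, and the median percentile was 51.7. Uchl1, a ubiquitin hydrolase of spermatogonia, had 1849, 1810.4, 2096 and 1807, Gfra1, the GDNF receptor of stem cells, 998, 1440.2, 1244 and 1497, and Id4, a transcription inhibitor of stem cells, 933, 1784, 1292 and 1099. Dmrt1, which keeps spermatogonia from entering meiosis, had 450.4, 375, 424 and 348. Kit, the receptor of differentiating spermatogonia, had 124, 99.9, 152 and 121. Itga6, an integrin, was the only tested member with a range of 2-fold or more, with 129, 289, 172 and 194, highest at 4 h. Stem cell genes such as Nanos3 (21.3, 17.6, 40.8 and 11.3) and Lin28a (34.4, 39.4, 35.9 and 10) lay near or under the floor.

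Sertoli cell markers were next in brightness. Of 20, 5 were among the brightest 5%, 17 were at or above the pooled median on all 4 arrays, and the median percentile was 86.2. Clu, which encodes the secreted chaperone clusterin, had 12682, 12658, 13699 and 13339, Aard 12366, 11887, 11608 and 11198, Cldn11, the claudin of the blood-testis barrier, 6833, 7016, 7388 and 7376, and Tsx 4814, 4807, 4573 and 4893. Wt1, a transcription factor that maintains Sertoli cells, had 922, 933, 1031 and 1146, and Gata4, another, 532, 570.2, 519 and 528. Amh, the hormone of immature Sertoli cells, lay low at 37.4, 55.5, 68.1 and 79.3, and Rhox5, a homeobox gene under androgen control, at 58.5, 18.7, 129.6 and 57.6. Sertoli cells touch the germ cells throughout, and their summed marker signal varied by only 1.25% (coefficient of variation over 4 arrays), against 1.49% for elongating spermatids.

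Leydig cell markers followed, with 1 of 14 among the brightest 5% and a median percentile of 85.5. Fdx1, the electron donor of steroid side chain cleavage, had 4246, 4837, 3644 and 4301, and Hsd3b1, which makes progesterone, 3677, 3706, 2522 and 2964. Cyp11a1, the first enzyme of steroid synthesis, had 2219, 1637, 1598 and 1861, Cyp17a1, which turns progestins into androgens, 1174, 1314, 1276 and 1269, and Star, which brings cholesterol into mitochondria, 1152, 1188, 919 and 1124. Insl3, the peptide hormone of Leydig cells, had 1687, 1616, 1398 and 2546 and was highest at 24 h. Hsd11b1, which interconverts glucocorticoids, had 3092, 2198, 1842 and 2349, highest at 0 h and lowest at 12 h. Hsd17b3, the last enzyme of testosterone synthesis, was dim at 129, 53.3, 151 and 118 and reached a 2-fold range through its low value at 4 h.

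Markers of the tubule wall and of the matrix between the tubules had no member among the brightest 5%. None of the 10 peritubular and smooth muscle markers was among the brightest 5% (median percentile 53.2). The contractile genes Mylk, Myh11 and Acta2 were the brightest of them, with 1217, 1123, 1191 and 1001, 841, 811, 831 and 646 and 670.4, 679, 680.1 and 742 at 0, 4, 12 and 24 h. Tpm2, a tropomyosin, had 308, 301, 241 and 264. Tagln, an actin-binding protein of smooth muscle, had 175, 78.2, 104 and 129, a 2-fold range. Of 11 interstitial matrix genes 0 were among the brightest 5%, but their median percentile of 77.3 lay above the 66.9 of all genes. Sparc, a matrix glycoprotein, had 939, 919, 781 and 929, and Pdgfra, a growth factor receptor of mesenchyme, 764, 546, 538 and 639.5. In this list 2 members reached a 2-fold range: the proteoglycan Dcn with 1222, 831, 520.3 and 1029 and the collagen Col3a1 with 677, 879, 414 and 663. In both, 12 h was the lowest array.

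Of 19 macrophage and leukocyte markers 1 was among the brightest 5%, and the median percentile was 55.6. That gene was Aif1, with 7723, 8283, 8340.3 and 8223, while Mrc1, the mannose receptor of resident macrophages, had 1577, 1492, 1474 and 1401, and Lyz2, lysozyme, 1089, 1028, 1144 and 1054. Cd163, a scavenger receptor of testis macrophages, had 153, 132, 166 and 130.3 and Cd68 129.5, 110.3, 130.4 and 80.3. The neutrophil genes S100a8 (9.7, 2.1, 29.2 and 27.1) and S100a9 (53.7, 1, 43.8 and 13) and the B cell gene Cd79b (6.8, 6.1, 9.5 and 6.1) lay near or under the floor. Cd74, the invariant chain of class II molecules, had 639.5, 943, 712 and 566. Aif1 is known to be made by spermatids of rat testis as well as by macrophages, so its signal need not come from macrophages.

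Of 10 endothelial markers 0 were among the brightest 5% (median percentile 53.2). Cldn5, the claudin of tight vessels, had 234, 282, 370.5 and 311 at 0, 4, 12 and 24 h. The receptors Tek, Flt1 and Eng had 235, 196, 204 and 234, 119, 157, 179.9 and 144 and 128, 132, 186 and 159. Vwf, the von Willebrand factor, had 139, 134, 147 and 139 and Pecam1, an adhesion molecule of vessels, 10.4, 36.6, 13.2 and 64.8. Blood was visible through Hbb, a beta-globin, with 3011, 3194, 1986 and 3024, and through Slc4a1, the anion exchanger of red cells, with 170.1, 93.6, 155 and 195. Alas2, which makes haem in red cells, had 942, 901, 1003 and 919. Of 5 epididymal markers Epcam, which spermatogonia also make in rodents, had 1091, 1928, 1695 and 1629, whereas Adam7, made in the epididymis, lay under the floor with 18.1, 36.1, 8.5 and 11.1. Among 6 fat cell markers Cfd had 168, 169.6, 166 and 183, and Adipoq, the defining hormone of fat cells, 11.6, 70.5, 67.1 and 78.9. Neither list had a member among the brightest 5%, with median percentiles of 46.4 and 36.4.

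**Figure D2:**
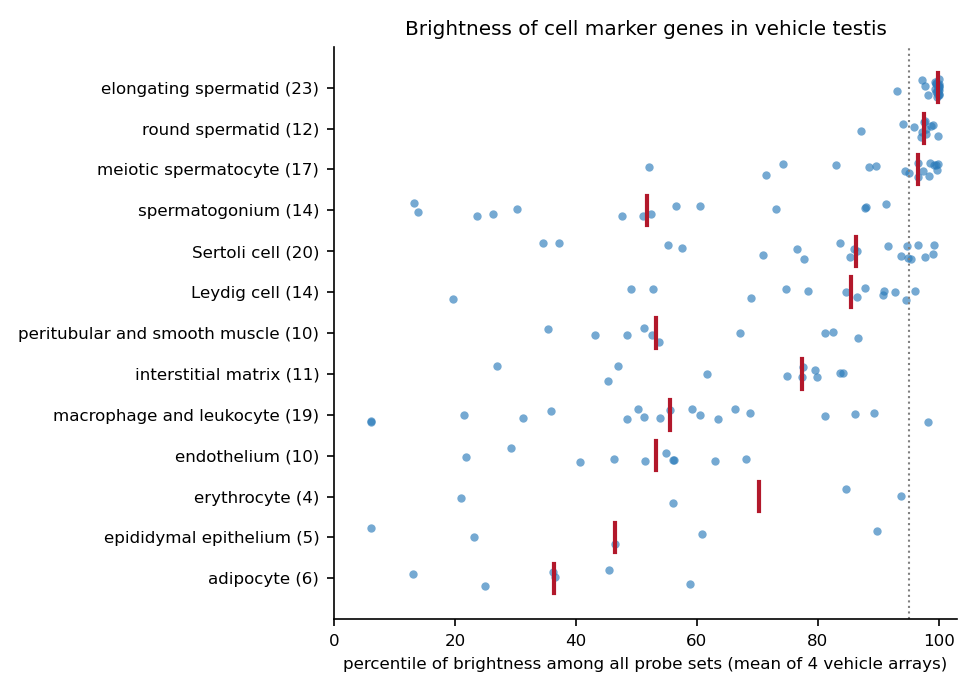
Percentile of brightness (0 to 100, among all probe sets) of each matched marker gene, by list, with the number of genes in brackets. Dots are genes, red bars are list medians and the dotted line marks the brightest 5%, and the medians run from 99.8 for elongating spermatids to 36.4 for fat cells.

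Functional lists were placed on the same scale. Several members, such as Pgk2, Gapdh, Hspa8 and Hsp90aa1, were not matched, so related forms of an enzyme or chaperone could not all be compared. Of 26 energy genes 17 were among the brightest 5%. The glycolytic genes Hk1 and Tpi1 had 22220.0, 21826, 21245 and 21311 and 19406, 18893, 18938 and 19933, beside Gapdhs and Ldhc above. The summed signal of the list varied by 0.488% (coefficient of variation), the least of the 25 lists. Of 24 chaperone genes 16 were among the brightest 5%. Hspb9 led, and subunits of the CCT ring that folds tubulin and actin followed, with 17901, 17510.0, 17449.9 and 17344 for Cct5 and 16758, 17358, 16088 and 16529 for Cct4. Of 9 inducible heat shock genes 3 were among the brightest 5%, Dnajb1 with 13484, 13582, 13617 and 14152, Dnajb4 with 4426, 4346, 4416 and 4062 and Bag3 with 3640.4, 3673, 3333 and 3322, while Hspa1a, the classic stress-induced chaperone, had 255, 286, 259 and 284. Hspa4l, an HSP110 relative of testis, had 2664, 2896, 3099 and 3244.

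Of 22 genes of the cytoskeleton 13 were among the brightest 5%. Dynll2, a dynein light chain, had 24872, 25055, 24985 and 25014, Actg1, gamma-actin, 22464, 22139, 20232 and 20696 and Capza3, the actin capping protein of spermatids, 17788, 18139, 18870.1 and 17892. Of 11 genes of RNA control 9 were among the brightest 5%, among them Eef1a1, elongation factor 1 alpha, with 20230.5, 20363, 21301 and 21748, Ybx3 with 17374, 17455, 18432 and 18754 and Ddx25, a helicase of spermatids, with 12101, 11475, 12175 and 12309.7. Of 9 histone and chromatin genes 5 were, and Hmgb4, an HMG protein of germ cells, had 16601, 17227, 18323 and 19113, H2az1, a histone variant, 16861, 17498, 17147 and 16682, and Nasp, a histone chaperone, 13561, 14637, 14791 and 14794. Of 11 ubiquitin and polyamine genes 7 were, and Azin2, an antizyme inhibitor of testis, had 12561, 12449.9, 12574 and 12388, Ube2n, a ubiquitin-conjugating enzyme, 11157, 9635, 10676 and 10135, and Oaz1, the general antizyme, 8839, 8667, 8353 and 8559. Of 19 oxidative stress genes 5 were, with Sod1, superoxide dismutase, at 8992, 10066, 8991 and 8372, Gsta1, a glutathione transferase, at 9752, 9122, 7392 and 10209 and Prdx4, a peroxiredoxin, at 8756, 8926, 9077 and 9298.

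Genes of acute response were dim in the vehicle testis. Of 38 immediate early genes 0 were among the brightest 5% (median percentile 51.5) and 17 lay at or above the pooled median on all 4 arrays. Jund, the steadily expressed member of the AP-1 family, had 3316, 3092, 3102 and 2813 and Klf4 2470.0, 2441, 2317 and 2168, followed by Ier5 with 709, 722, 642 and 653 and Rgs2 with 607, 691, 654 and 639. The brightest probe set of Fos had 53.7, 21.8, 92.6 and 13.1, Egr1 171, 157, 144 and 137 and Jun 228, 251, 214 and 279.7. Ier3 (91, 94.7, 123 and 232) and Csrnp1 (155, 119, 141 and 51.9) had 2-fold ranges, through opposite values at 24 h, with Ier3 high and Csrnp1 low. Of 34 inflammation genes 0 were among the brightest 5% and 8 lay at or above the pooled median on all 4 arrays, with a median percentile of 36.9. Hp, which encodes haptoglobin, had 1941, 2213, 1786 and 2089.7, and Vcam1, an adhesion molecule, 1270.0, 864, 876 and 1204. The cytokines Il1b and Tnf were near or under the floor, with 59.4, 7.5, 59.8 and 60.9 and 17.1, 52.7, 18.3 and 48, and Il1a, a cytokine of the tubules, had 155, 139.5, 104 and 101. Il1r1, the receptor of interleukin 1, had 67.3, 174, 132 and 121, lowest at 0 h, and Nfkb1, a subunit of NF-kB, 94.6, 192, 145 and 99.6, both with 2-fold ranges. Stat3, a transcription factor of cytokine signalling, had 282, 331, 198 and 241.

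Glucocorticoid target genes and clock genes are known to respond to handling stress and to the time of day. Of 19 glucocorticoid genes 1 was among the brightest 5%, Mt2A, a metallothionein, with 9005, 9038, 9113 and 7992. Fkbp5, a chaperone partner induced by glucocorticoids, had 568, 526, 462 and 428 and Tsc22d3 432, 417, 440.4 and 481. Only Ddit4, an inhibitor of mTOR signalling, with 749, 336, 353 and 669.9, and Lcn2, described below, had 2-fold ranges, 2 of 16 tested, against 4.82% of the 9783 tested genes. Sult1a1, a sulfotransferase, had 1158, 714, 646 and 825, Klf9 742, 749.6, 691 and 594 and Cdkn1a, a cell cycle inhibitor, 584, 617, 670.3 and 609. Of 20 clock genes 2 were among the brightest 5%, Usp2 with 12755, 11537, 12665 and 11719 and Csnk1d, a kinase of the PER proteins, with 9403, 8967, 8929 and 8309. The repressors Cry1, Per1 and Per2 had 712, 788, 701 and 817, 383, 609.9, 536 and 536 and 265, 267, 257 and 289, Nr1d2 629.6, 666, 701 and 639, Dbp, an output gene of the clock, 140.4, 164, 144 and 169, and Bmal1, the activator, 58.8, 99.3, 81.4 and 89.7, with part of its values under the pooled median. None of the 16 tested clock genes had a 2-fold range. Over all lists, 12 of 303 tested members, or 3.96%, had such a range.

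The 4 vehicle arrays were alike. Over log2 signals of all probe sets their pairs correlated at r between 0.978 and 0.9811, as a description. In the median tested probe set 2 arrays differed by a factor of between 1.108 and 1.126. Between 298 and 379 of the 15880 tested probe sets differed by 2-fold or more in a pair, from 1.88% to 2.39%. The arrays of 0 and 4 h, the only pair of 1 hybridisation run, had the lowest r (0.978) and the highest count (379), while their median difference of 1.116-fold was the smallest of the 3 pairs with the 0 h array. Over all 4 arrays the highest signal was in the median 1.27 times the lowest, and 1039 tested probe sets (6.54%) had a range of 2-fold or more. In the dimmest 25% of tested probe sets this share was 21.96%, in the next bins 3.3% and 0.781%, and in the brightest 25% it was 0.126%. In the 100 brightest probe sets the median ratio was 1.069 and the largest 1.228.

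The steadiest of the 1000 brightest genes were Dynll2, with 24872, 25055, 24985 and 25014 at 0, 4, 12 and 24 h (ratio of highest to lowest 1.007), Uqcrfs1, the iron-sulfur subunit of complex III, with 22794, 22884, 23002 and 22917, and Ran, the small GTPase of nuclear transport, with 22317, 22504, 22249 and 22447. Tcp1, a CCT subunit, had 16498, 16677, 16542 and 16625, and Sync, an intermediate filament protein, 11979.6, 11963, 11854 and 11849. In each of these 5 genes the highest array exceeded the lowest by a factor of at most 1.011.

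Among genes with 1 symbol, each read from its brightest probe set, the widest ranges were those of dim genes. Over all tested probe sets the largest ratio was 13.3, and the unnamed 1390636_at had 11.03 at a mean signal of 693. Ctrb1, chymotrypsinogen B, a digestive enzyme of the pancreas, had 302, 534, 44.3 and 294, a ratio of 12.06 through its low value at 12 h. P4ha3, a prolyl hydroxylase of collagen, had 298, 203, 266 and 14.7, and Neurl1b, a ubiquitin ligase, 258, 139, 91.5 and 5.8, both low at 24 h and at the floor there, so that their ratios of 8.05 and 6.95 are lower bounds. Rad54l2 (27.2, 81.2, 126 and 245), Hap1 (35.9, 226, 173 and 129.9) and Tmem201 (37.4, 142, 195 and 169) were lowest at 0 h. Fam149a (62.9, 318, 193 and 352) and Begain (50.2, 262, 194 and 135) were also lowest at 0 h, whereas Carmil2 (271, 196, 50.7 and 161) was lowest at 12 h and L3hypdh (186, 91.2, 202 and 28) at 24 h. Sbk1 was low at both 0 and 12 h, with 23.3, 190.4, 28.7 and 174, and Adgrv1, an adhesion receptor, stood high at 24 h, with 123, 102, 81.4 and 417. The lowest values of Rad54l2, Hap1, L3hypdh and Sbk1 also lay under the floor, so their ratios are lower bounds too. These 12 genes averaged between 104 and 294 units, near the filter, and were picked for their range on these arrays. Over the 6 drug arrays the ratio was 14.23 for Ctrb1, wider than in vehicle, and between 1.83 and 4.91 for the other 11, narrower than in vehicle. Narrower ranges on other arrays follow from that choice and say nothing about the drugs. The lowest drug values of Ctrb1 and Neurl1b, both with lonidamine, lay under the floor, so their drug ratios are lower bounds too. Ctrb1 had 300.4, 236 and 434 with gamendazole and 528, 9.4 and 231 with lonidamine at 4, 12 and 24 h.

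**Figure D3:**
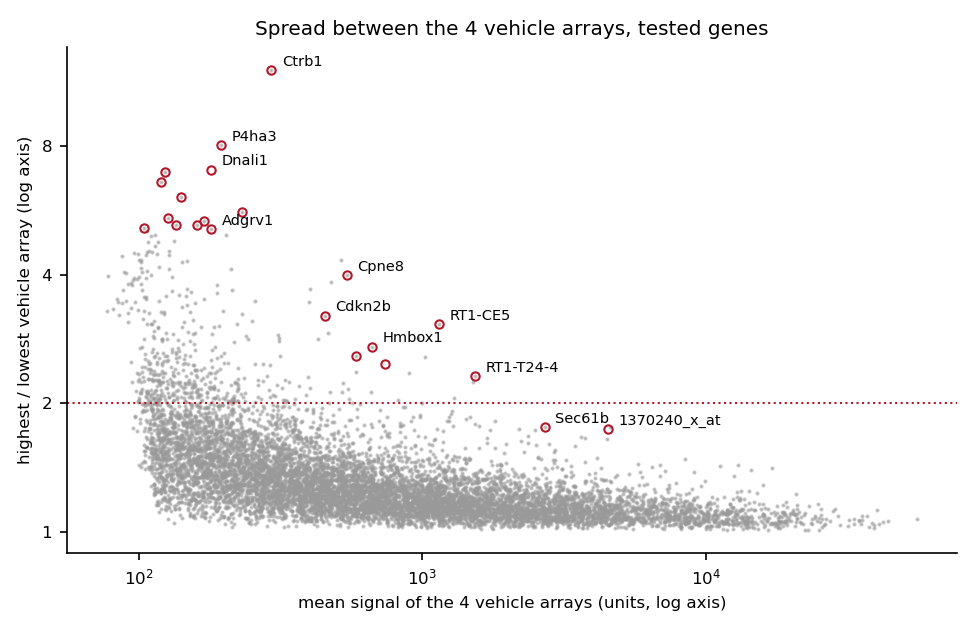
Ratio of the highest to the lowest of the 4 vehicle arrays (log axis) against the mean signal (units, log axis). Grey dots are the 9783 tested genes, red circles the 12 widest ranges and the probe sets called in a comparison of hours, and the dotted line marks 2-fold. The ratios narrow from left to right, and Ctrb1 is the highest circle at 12.06.

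Each hour was then set against the mean of the other 3, to find transcripts in which the array of 1 hour stood apart (limma with Benjamini-Hochberg adjustment over 15880 probe sets, threshold 0.05). The call counts were small: 8 probe sets at 0 h (0.0504%), 0 at 4 h (0%), 2 at 12 h (0.0126%) and 1 at 24 h (0.0063%), with 1143, 618, 590 and 812 at an unadjusted p under 0.05. With 1 array against 3, the median 95% interval reached between 0.416 and 0.437 to either side on the log2 scale. With 1 array an hour, a call can stem from the time after dosing, the animal or the array, which cannot be told apart. Without the variance trend in limma 0 probe sets were called at any hour, with adjusted p = 0.414 for RT1-CE5 and 0.793 for Cpne8, the lowest adjusted p at 0 and 24 h with the trend. None of the 100 brightest genes was called at any hour, and no member of the 25 lists was.

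At 0 h, the array with no time after dosing, 5 probe sets were higher and 3 lower. RT1-CE5, a class I gene of the rat major histocompatibility complex, had 2286 at 0 h, against 748, 776 and 768 at 4, 12 and 24 h (log2 difference 1.58 ± 0.12 standard error, limma adjusted p = 0.00157). A second of its probe sets, which shares sequence with other genes, had 1324 at 0 h, against 537, 553 and 547 at 4, 12 and 24 h (1.28 ± 0.14, limma adjusted p = 0.0143). Another class I gene, RT1-T24-4, went the other way, with 828 at 0 h, against 1748, 1658 and 1913 at 4, 12 and 24 h (-1.10 ± 0.12, limma adjusted p = 0.0143). These genes belong to a family of near-identical copies that differ between rats, so which copy a probe set reads is uncertain. On the drug arrays at 4, 12 and 24 h, the first RT1-CE5 probe set had 2593, 1771 and 741 with gamendazole and 3839, 4839.7 and 1290.0 with lonidamine. RT1-T24-4 had 1489.8, 1100.2 and 2449.5 and 318, 412 and 2477 there. The vehicle arrays of 4, 12 and 24 h and the gamendazole array of 24 h formed a low group for RT1-CE5, between 741 and 776, and the vehicle array of 0 h lay among the other drug arrays, which reached from 1290.0 to 4839.7.

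Id2, an inhibitor of basic helix-loop-helix factors, had 1014 at 0 h, against 464, 393 and 466 at 4, 12 and 24 h (1.21 ± 0.17, limma adjusted p = 0.048). Hmbox1, a homeobox gene, had 1208 at 0 h, against 507, 446 and 503 at 4, 12 and 24 h (1.32 ± 0.15, limma adjusted p = 0.0205), and Sec61b, a subunit of the channel into the endoplasmic reticulum, 3874 at 0 h, against 2202, 2350.3 and 2418 at 4, 12 and 24 h (0.74 ± 0.09, limma adjusted p = 0.0315). Of the lower genes, Cdkn2b, an inhibitor of the cell cycle kinases CDK4 and CDK6, had 187 at 0 h, against 539, 599 and 490.3 at 4, 12 and 24 h (-1.53 ± 0.18, limma adjusted p = 0.0215). Dnali1, a light chain of axonemal dynein, had 36.1 at 0 h, against 187, 238 and 262 at 4, 12 and 24 h in a dim probe set whose value at 0 h lay at the floor (-2.61 ± 0.36, limma adjusted p = 0.048). Its brighter probe set had 3787, 3470.2, 3655 and 3914 at 0, 4, 12 and 24 h and showed no such gap. Second probe sets of Hmbox1 (94.1, 92.7, 113 and 78.1) and Id2 (194, 136, 148 and 171) had no gap of that size either, and they were dimmer. With the floor raised to the pooled median 1 probe set was called at 0 h, without the 12 h array 3 and without the 24 h array 1.

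At 4 h no probe set passed (limma), and 618 had an unadjusted p under 0.05. The smallest p belonged to Lcn2, an iron-binding protein of the acute phase, with 859 at 4 h, against 232, 244 and 279 at 0, 12 and 24 h (1.77 ± 0.21, limma adjusted p = 0.0594). With gamendazole Lcn2 had 325, 937 and 1679 and with lonidamine 459, 815 and 4429 at 4, 12 and 24 h, so the vehicle array of 4 h lay above both drug arrays of that hour. A probe set with no gene symbol here, 1386855_at, had 2156 at 4 h, against 1042, 1174 and 1101 at 0, 12 and 24 h, and Nek1, a kinase of cilia, 538 at 4 h, against 1382, 1066 and 1101 at 0, 12 and 24 h. Leaving out the 24 h array gave 35 calls at 4 h, leaving out the 0 h array 1, and leaving out the 12 h array 0.

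At 12 h both called probe sets were lower. Ctrb1 had 44.3 at 12 h, against 302, 534 and 294 at 0, 4 and 24 h (-3.03 ± 0.35, limma adjusted p = 0.0418). The unnamed probe set 1370240_x_at had 2986 at 12 h, against 5115, 4817 and 5186 at 0, 4 and 24 h (-0.75 ± 0.09, limma adjusted p = 0.0418), and with gamendazole it had 6092, 7783 and 10946, and with lonidamine 6179, 4803 and 7117 at 4, 12 and 24 h. Neither call remained without the 0 h or the 4 h array, which left 0 calls, while leaving out the 24 h array gave 16. A floor at the pooled median, a pseudocount of 16, quantile normalization and cyclic loess also left 0 calls. At 24 h the call was Cpne8, a calcium-dependent membrane-binding protein, with 1194 at 24 h, against 299.5, 344 and 336 at 0, 4 and 12 h (1.87 ± 0.18, limma adjusted p = 0.0111). Cpne8 had 1767, 483 and 489 with gamendazole and 368, 1213 and 2072 with lonidamine at 4, 12 and 24 h, so 3 drug arrays of different hours lay above the vehicle array of 24 h. Its other 2 probe sets were dim, at 105, 104, 58.1 and 120.5 and 7.4, 26.6, 11.4 and 3.1 in the vehicle arrays. Without the 0 h array there were 0 calls at 24 h, without the 4 h array 17 and without the 12 h array 3.

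**Figure D4:**
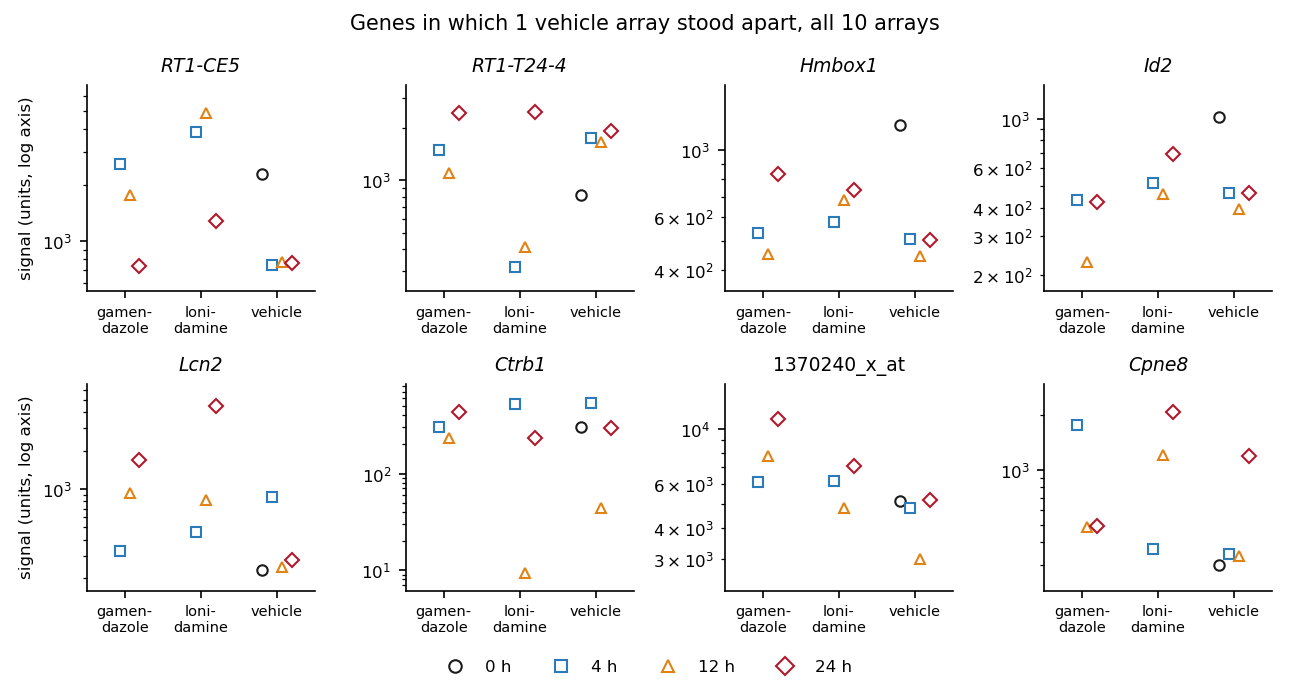
Signal (units, log axis) of 8 probe sets in which 1 vehicle array stood apart, with gamendazole, lonidamine and vehicle from left to right and 1 symbol an hour. RT1-CE5 is high at 0 h in vehicle (2286) and on 5 of the drug arrays, and 1370240_x_at is lowest of all on the vehicle array of 12 h (2986).

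By size alone, the vehicle array of 0 h was at least 2-fold above or below each of the other 3 in 85 probe sets (0.535%), of which 75 were lower. The array of 4 h was so in 54 (0.34%), that of 12 h in 43 (0.271%) and that of 24 h in 51 (0.321%). In each case most were lower, and 10, 2, 0 and 3 were higher. The filter favours this direction, since a tested probe set had to reach the pooled median on at least 2 vehicle arrays. Dim probe sets high on 1 array alone were thus left out, while those low on 1 array alone were kept. The excess of lower ones is therefore not a result about the arrays. A straight trend over the 24 h was called in 0 of 15880 probe sets (limma, 0%), with 1127 at an unadjusted p under 0.05. The smallest p belonged to Cirbp, a cold-inducible RNA-binding protein, with 1719, 1619, 999 and 836 at 0, 4, 12 and 24 h (-1.11 ± 0.16 per 24 h on the log2 scale, limma adjusted p = 0.527). The unnamed 1390636_at had 1108, 1365, 176 and 124, and Ropn1l, a protein of the sperm tail, 14248, 15321, 15608 and 18275. Without the 4 h array 35 probe sets passed for the trend, without the 0 h array 1 and without the 12 h array 5.

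Cell marker lists were then followed over the hours by their summed signal, to see whether the makeup of the sampled tissue moved. The sums of the large germ cell and Sertoli lists were steady: elongating spermatid markers summed to 577056, 574641, 589434 and 569042 at 0, 4, 12 and 24 h, and Sertoli markers to 57797, 56499, 57807 and 58111. The Leydig and interstitial matrix lists had their lowest sums at 12 h. Leydig markers summed to 15612 at 12 h, against 20172, 18722 and 19039 at 0, 4 and 24 h, and interstitial matrix genes to 3967, against 5545, 5400 and 5134. Macrophage and leukocyte markers summed to 13512 at 12 h, against 12973, 13769 and 13248 at 0, 4 and 24 h. Most of that sum was Aif1 (8340.3 at 12 h), which spermatids also make, so it says little about macrophages. Endothelial markers, all dim, summed to 1416, against 1229, 1193 and 1485. By gene, 8 of 13 tested Leydig markers and 5 of 8 matrix genes were lowest at 12 h, as were 23.4% of all 9783 tested genes. For the macrophage and leukocyte list it was 3 of 13 and for the endothelial list 0 of 6. None of these genes was called at 12 h, no test was run on the sums, and the Leydig list ran from 14914 to 29960 on drug arrays, against 15612 to 20172 on vehicle arrays. The probe set 1370240_x_at was low on the same array. The red cell sum was also lowest there, with 3149 at 12 h, against 4159, 4249 and 4143 at 0, 4 and 24 h, but through Hbb alone, with 1986 at 12 h, against 3011, 3194 and 3024 at 0, 4 and 24 h, since 1 of 3 tested red cell genes was lowest at 12 h and Alas2 was highest there. Whether the amount of interstitium or blood in that sample plays a part was not tested.

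Other lists had small tilts. Of 17 tested meiotic markers 11 were lowest at 0 h, against 27.1% of all tested genes, but by a median of only 0.092 on the log2 scale below their own means. Of 12 round spermatid markers 6 were highest at 0 h, against 26.2%. Inflammation genes were highest at 4 h in 8 of 13 tested members, against 22.4%, with a median of 0.235 on the log2 scale above their own means, and the list includes Lcn2, Il1r1 and Nfkb1. Spermatogonial markers summed to 5137, 6422, 5932 and 5467 at 0, 4, 12 and 24 h. No test was run on these orders.

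**Figure D5:**
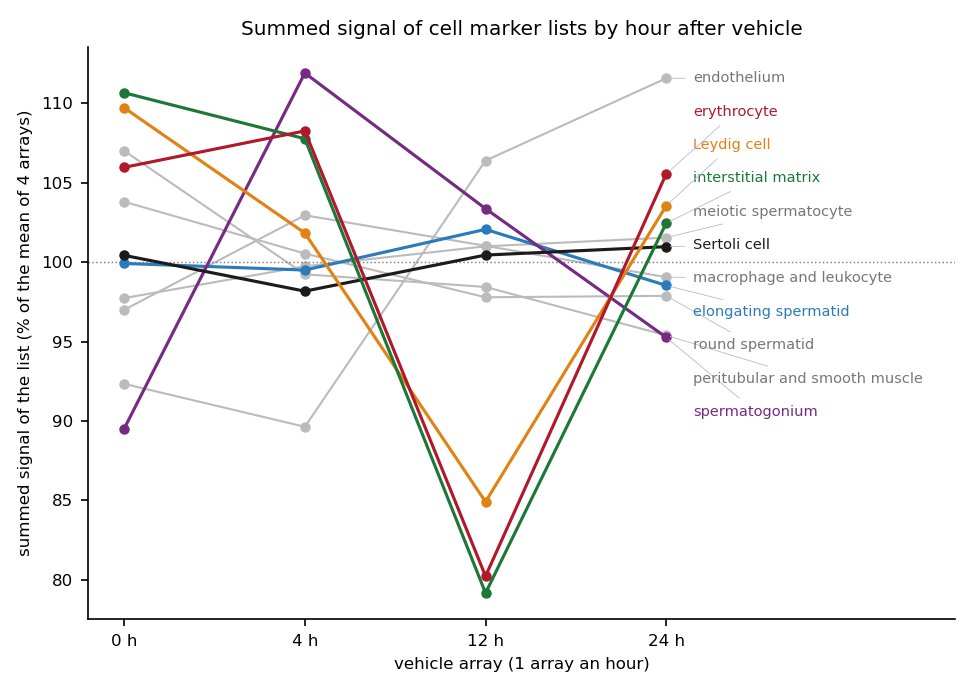
Summed signal of 11 cell marker lists on each vehicle array, as a percentage of the list's mean over the 4 arrays (axis not from 0), 1 array an hour. Leydig, interstitial matrix and red cell lists are lowest at 12 h and macrophage and endothelial lists are not, while elongating spermatid and Sertoli lists stay near the dotted line at 100%. Most of the macrophage sum is Aif1, which spermatids also make.

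The vehicle arrays were last set against the 6 drug arrays, to show where the baseline differs from the rest of the series. The brightest probe sets took a larger share of the summed signal on the vehicle arrays. The 100 brightest probe sets of each array held 10.68 ± 0.32% of the signal on drug arrays (SD, n = 6) and 11.31 ± 0.09% on vehicle arrays (n = 4), and all 6 drug arrays, at 10.27% to 11.02%, lay below the lowest vehicle array at 11.193%. The difference of -0.63 percentage points had an exact two-sided permutation p = 0.0095, the smallest that 6 against 4 arrays can give, and the share of the 1000 brightest differed by -1.92 points with the same p. Within runs the order was the same: lonidamine had 10.701% at 4 h in the first run, against 11.281% and 11.371% in vehicle. Both drugs had between 10.83% and 11.02% in the next run, against 11.383%, and 10.27% and 10.31% in the last, against 11.193%. Control probe sets for cre do not measure testis RNA and were about as bright. Their medians were 22145, 22468, 22347 and 23025 with vehicle at 0, 4, 12 and 24 h. At 4, 12 and 24 h they were 22681, 22905 and 21362 with gamendazole and 21766, 20424 and 21035 with lonidamine. Whether the bright end of the signal scale differed between arrays was not tested.

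By gene, 802 of 17549 probe sets differed between drug and vehicle arrays (limma adjusted p under 0.05, 4.57%), 660 higher and 142 lower with drug. The count rested on single arrays, with 291 to 368 calls when any vehicle array was left out, 422 without gamendazole 12 h, 483 without lonidamine 12 h, 1347 without lonidamine 4 h and 2109 without gamendazole 4 h. Of the 100 brightest vehicle genes 16 were lower with drug and 0 higher, against 0.991% lower and 3.77% higher of all 10490 tested genes, and their median difference was -0.138 on the log2 scale, against -0.019 over all tested probe sets. They include Gpx4, with 37609, 35197 and 32644 with gamendazole and 34575, 35206 and 32820.1 with lonidamine at 4, 12 and 24 h, against 38940.5, 37584, 39394 and 38632 with vehicle at 0, 4, 12 and 24 h (-0.16 ± 0.04, limma adjusted p = 0.0416), and Gsg1 and Pebp1 (limma adjusted p = 0.0451 and 0.0464). These genes were chosen for their brightness on the vehicle arrays that enter the contrast, and chosen on the drug arrays instead, an alternative added after seeing the data, 13 of 100 were lower and 0 higher. The direction rests on the deposited scaling. After quantile normalization the median was -0.016 with 0 called lower and 1 called higher, and after cyclic loess 0.001 with the same counts. Single arrays also decide the count: without the vehicle array of 0, 4, 12 or 24 h it was 1, 1, 0 or 2, without gamendazole 12 h 5, without lonidamine 24 h 3 and without gamendazole 4 h 69, all lower. With the hybridisation run as a factor 35 were lower and 0 higher.

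Of 23 elongating spermatid markers 5 were called lower with drug and 0 higher under the deposited scaling (median -0.137 on the log2 scale). After quantile normalization (median -0.034) and after cyclic loess (median 0.015) 0 were called in either direction. Both methods level the bright end, where these markers lie, so these counts cannot decide the direction either. Leaving out 1 array gave between 0 and 3 lower, except 14 without gamendazole 4 h, and with the hybridisation run as a factor 12 were lower. The 10 genes with the largest called differences were all higher with drug and dim in vehicle, with percentiles there between 6.13 and 54.6. A probe set entered this comparison if at least 2 of all 10 arrays reached the pooled median. Of these genes only Hpx also passed the filter on the vehicle arrays. The others entered because of the drug arrays where they were high, so their dimness in vehicle follows from the selection. Hpx, which encodes the haem carrier hemopexin, had 810.4, 3350.5 and 5796 with gamendazole and 413, 1281 and 6151 with lonidamine at 4, 12 and 24 h, against 121, 163, 116 and 154 with vehicle at 0, 4, 12 and 24 h (3.82 ± 0.64, limma adjusted p = 0.0061). Ripk2, a kinase of innate immunity, had 618, 1429 and 773 and 382, 1383 and 1305 with the same drugs. Its vehicle signals of 53.9, 82, 90.4 and 97.6 all lay under the pooled median, so its fold and p-value are not given. The chemokines Cxcl1 and Ccl20 lay at the floor on all 4 vehicle arrays, and Ccl2 and a dim probe set of Fos on 3 of 4, so their folds are not given. The vehicle signals of the others at 0, 4, 12 and 24 h were 93.4, 101, 65.4 and 47.3 for Tnfrsf12a, the receptor of TWEAK, 59.7, 35.5, 39.1 and 38.4 for Cxcl11, an interferon-induced chemokine, 53.9, 74.7, 71.9 and 36.4 for Testin, of Sertoli cell junctions, and 124, 44, 16.3 and 60.6 for the tubulin Tubb6.

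The spread within a group was also smallest in vehicle. Over the 3 shared hours the median standard deviation of log2 signal was 0.184 with gamendazole, 0.17 with lonidamine and 0.137 with vehicle, and 9.23%, 8.27% and 4.0% of probe sets had a range of 2-fold or more. The probe sets were those that passed the filter on vehicle arrays, the hours of a group include any response to the drug, and the difference in spread was not tested. With the 0 h array the vehicle value was 0.155.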

How the data were processed

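RNA of rat testis was measured on 10 Affymetrix Rat230_2 arrays, labelled from 6.2 micrograms of total RNA by the single-cycle procedure, per the labels' protocols. The authors deposited linear intensity values, 1 a probe set, made with GCOS 1.1, per the submitters' processing notes. On every array of the deposited table the mean after trimming 2% at each end was 500, which takes out differences in the total RNA of arrays. Detection calls were not used, and the number of arrays limits the precision.

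Here 57 control probe sets were left out, a floor was set at the pooled 25th percentile (37.1), and values were put on the log2 scale. Hybridisation runs were read from the instrument records deposited with the arrays. The platform annotation gave 1 symbol to 20826 probe sets, several to 436 (left unnamed) and none to 9780, or 14217 genes, each given by its brightest probe set. Tests used limma 3.58.1 in R 4.3.3 (eBayes with a variance trend, Benjamini-Hochberg), with 2 residual degrees of freedom over the vehicle arrays and 7 over all 10. The fit was tested on simulated data. Rank, share and spread measures were computed in Python 3.11.15 with scipy 1.17.1.

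The vehicle arrays were taken by their titles; they and the 25 gene lists were chosen as the subject with earlier results of these data known. Of 488 symbols on the lists, 386 were matched. The text names the 30 brightest genes, the 12 widest and 5 narrowest ranges (the narrowest among the 1000 brightest genes), and of each comparison the 10 called genes with the largest difference or the 3 smallest p-values. From each list it names the 4 brightest members, members that define a cell type and those with a 2-fold range. Other list members, for instance the dimmest of a list, and second probe sets were chosen after their values were seen. Alternatives changed the floor, the filter, the scaling, the variance trend, the hour or run as a factor, and left out each array.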

Additional observations from a re-analysis of the deposited data

Results flagged for a closer look

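Of 97 values tested over the 4 vehicle arrays, 13 (13.4%) had 1 array far from the others, by a gap that was large against the whole range; chance alone puts about 1 in 20 there. Many of the 97 were named for a wide range or a small p, so that this share has no plain background. The gap as a share of the range is given for each.

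At 0 h, the highest array stood apart for both RT1-CE5 probe sets (0.967 for 1371209_at and 0.967 for 1388255_x_at), for Hmbox1 (0.87) and for Sec61b (0.835). At 4 h it stood apart for Lcn2 (0.861) and for the unnamed 1386855_at (0.837), and at 24 h for Cpne8 (0.9).

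Low arrays stood apart at 12 h for the unnamed 1370240_x_at (0.866), for the summed signal of the red cell list (0.904), which follows Hbb, and for Smcp (0.899). At 24 h they did so for Prm1 (0.921), Spata6 (0.833) and the highest signal of the array (0.918), which is the signal of Prm1 itself. In Smcp, Prm1 and Spata6 the ratio of highest to lowest array was only 1.051, 1.069 and 1.044. No cause was tested for any of these gaps.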

How the results depend on the processing

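Replicate numbers pair nothing here, since the same number stands for different hours in drug and vehicle arrays. Matched by hour over the 9 arrays of the shared hours (hour as a factor), 657 probe sets were called with drug, against 802. For the 8 calls at 0 h, raising the floor to the pooled median gave 1, a filter at the 75th percentile 5, quantile normalization 4, no variance trend 0 and no filter 737, and leaving out an array gave 1 to 8. At 4 h (0 calls) no filter gave 888, cyclic loess 1, and leaving out an array 0 to 35. At 12 h (2 calls) no filter gave 752, the higher floor, a pseudocount of 16, the 75th percentile filter, both normalizations and no variance trend each gave 0, and leaving out an array gave 0 to 16. At 24 h (1 call) no filter gave 552, a pseudocount of 16 gave 2, the higher floor, the stricter filter and no variance trend each gave 0, and leaving out an array gave 0 to 17. The trend gave 0 except with an array left out (0 to 35). The large counts without a filter include probe sets at the floor on the other 3 arrays, which have no spread of their own: 676, 787, 699 and 526 of them rose above the floor at 0, 4, 12 and 24 h. No called probe set reversed under any setting run; RT1-CE5 (1371209_at) stayed past the threshold in 9 of 10, Cpne8 in 6 of 9, and Dnali1 and Id2 in 0 of 9.

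For the 802 calls between drug and vehicle arrays, no filter gave 161, no variance trend 367 and the run as a factor 512, and leaving out an array gave 291 (vehicle 12 h) to 2109 (gamendazole 4 h). The median ratio of highest to lowest vehicle array (1.27) became 1.25 with the higher floor, 1.333 without the filter and 1.193 to 1.204 with an array left out. The 1039 probe sets with a 2-fold range became 320, 4611 and 486 to 546. Values near the floor, where arrays differ most, limit every count above.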

Other observations

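Probe sets named for the rat major histocompatibility complex (RT1) were looked at after RT1-CE5 had been seen. Of 23 tested probe sets of 15 such genes, 10 had a range of 2-fold or more between vehicle arrays, against 6.54% of all tested probe sets. The array of 0 h stood alone at least 2-fold above the other 3 in 4 of them, all of RT1-CE5, and alone at least 2-fold below in 2. On the 2 tested probe sets of RT1-CE5 not given above, the vehicle arrays of 0, 4, 12 and 24 h had 751.6, 229, 343 and 311 units in one and 389, 164, 175 and 114 in the other. A further probe set of the gene, not tested, lay under the floor on these arrays, with 7.9, 5.1, 16.5 and 2.5. RT1-N2, another class I gene, had 2.0, 23.6 and 65.2 with gamendazole and 5.4, 7.5 and 47.6 with lonidamine at 4, 12 and 24 h, against 32.8, 135, 112 and 146 with vehicle at 0, 4, 12 and 24 h. RT1-Ba, of class II, had its lowest vehicle value at 12 h in both of its wide-ranging probe sets, with 51.3 and 121. The probe sets overlap in sequence and are not independent, and no test was run on them.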
